A study of Rattus norvegicus with 29 samples.

Results

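The transcripts described here were low in rat proximal tubule cells after 24 h with gentamicin and near control with 3 other compounds. They were chosen from the deposited TPM values (a level scaled to transcript length and to the total of the library). L is log2((treated mean TPM + 1) / (control mean TPM + 1)). A member had a mean of 1 to 500 TPM over the 5 control libraries, an L of -1 or less with gentamicin at 24 h, and an L within 0.5 of 0 with acetaminophen, TCDD and trichloroethylene at 24 h. Of 28420 transcripts in the tables, 13730 were in the control range and 2001 of these had a gentamicin L of -1 or less. In 1837 of the 2001, another compound was beyond 0.5, most often TCDD (1560 transcripts). The remaining 164 met every condition, and the 150 with the lowest gentamicin L are the members.

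The 29 RNA libraries came from primary proximal tubule epithelial cells of the rat kidney. The groups were untreated control, acetaminophen (an analgesic), gentamicin, TCDD (2,3,7,8-tetrachlorodibenzodioxin, which binds the aryl hydrocarbon receptor) and trichloroethylene (a solvent), each at 6 h and 24 h. There were 3 libraries per group except control at 6 h, which had 2. The labels used here state no strain, age, dose or vehicle. They also do not say whether replicates were separate cultures, so each p-value reflects library-to-library spread, which may be technical.

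Gentamicin is an aminoglycoside antibiotic that binds the ribosome. In the kidney it is filtered and then taken up at the brush border of the proximal tubule through the endocytic receptors megalin and cubilin. It collects in lysosomes, and injury of this segment is the best known toxic effect of the drug on the kidney. Whether the members belong to any of these pathways could not be read from the data. The files give Ensembl transcript identifiers without gene names, and the reference table used here holds 0 Ensembl identifiers, so no role, gene list, sequence or cell type marker could be assigned. The members are therefore described by level, length, sharing of reads and response. Only 4 are named by identifier, by a rule given with the processing. Others that are singled out by length were chosen after their values were seen.

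Libraries held 8243698 to 11446612 estimated counts, and the members together took between 14159 and 45127 of them in a library. No replicate pair was a duplicate: the chi-square per degree of freedom between replicates ran from 2.98 to 28.3. Beside the results below stands fragment length, taken in each library as transcript length minus effective length. It averaged 278.5 ± 9.6 bases in 24 h controls (SD, n = 3) and 261.7 ± 2.65 with gentamicin at 24 h (n = 3). The other compounds at 24 h had shorter means than gentamicin (n = 3 each): 234.05 with TCDD, 253.8 with acetaminophen and 255.1 with trichloroethylene. The acetaminophen libraries of 24 h ran from 232.7 to 274.7. At 6 h fragment length averaged 260.2 ± 4.31 in controls (n = 2) and 253.6 ± 6.93 with gentamicin (n = 3). Means of the other compounds at 6 h were 248.9 with acetaminophen, 260.6 with TCDD and 272.8 with trichloroethylene (n = 3 each). The part of fragment length in the results was tested only as a covariate at 6 h.

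The values that chose the members are given first, as a description. The median member had 12.9 TPM in 24 h controls and 4.84 TPM with gentamicin at 24 h. The median ratio of control to gentamicin TPM was 2.81, with the middle of the distribution between 2.42 and 3.37, over the 148 members with a count in the gentamicin libraries. L reached -2.24 at its lowest, was -1.5 or less in 31 members, and had a median of -1.22. For the member of rank 150 it was -1.0269, and for the first transcript left out by the limit of 150 it was -1.0258. The last transcript to meet the limit of -1 stood at -1.0011 and the next above it at -0.99999. For the other compounds, the largest size of L among the transcripts that met the rule was 0.498, and the smallest among those turned away was 0.5004.

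The shortfall was alike in the 3 gentamicin libraries of 24 h. Summed over the members, they held 1413, 1438 and 1283 TPM, while the 3 controls of 24 h held 3492, 3517 and 3525. No other group came near the gentamicin level: the remaining 6 h and 24 h groups had means between 2989 and 3547 TPM. Every gentamicin library was below every control library of 24 h in 146 of the 150 members. In 135 members the gentamicin libraries lay below all other 24 h libraries, and in 105 below all other libraries of both times. Of the 148 members tested below, 145 lay below control without overlap, where 38.4% of the 15990 tested transcripts did. The rule used the 24 h libraries, so nothing is read from any of these counts. For the 135 and the 105, no share over all transcripts was computed.

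**Figure D1:**
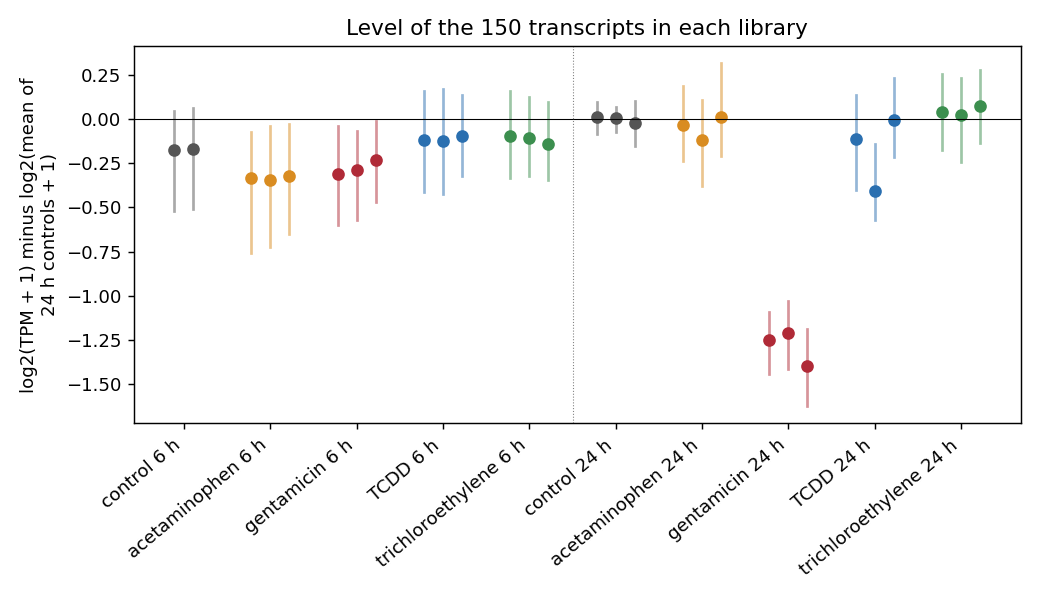
Each point is the median over the 150 members of log2(TPM + 1) minus log2 of the mean of the 24 h controls + 1 in 1 library, and each line spans the interquartile range of the members. The gentamicin libraries of 24 h lie between -1.40 and -1.21, and the next lowest library, TCDD replicate 2 at 24 h, is at -0.41.

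In TPM, libraries of the other compounds were not all at control level. TCDD replicate 2 at 24 h held 2925 TPM over the members, below TCDD replicates 1 and 3 with 3244 and 3413. Its place depends on the scale: its TMM factor was 0.895, beside 0.960 and 0.985, and a smaller factor raises the scaled counts. The members held 40942 estimated counts in this library, beside 33336 to 39387 in 24 h controls. Without TCDD replicate 2, 175 transcripts met the rule, 143 of them members. The median member spread between TCDD replicates at 24 h was also the widest of the 10 groups, with an SD of 0.255 in log2(TPM + 1), beside 0.207 with gentamicin and 0.142 in controls at 24 h.

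How flat the other compounds look depends on the scale. In TPM, the median over all tested transcripts at 24 h was itself displaced, with an L of -0.15 with gentamicin, -0.26 with TCDD, 0.12 with acetaminophen and 0.03 with trichloroethylene. The members' median L was -0.18 with TCDD, -0.05 with acetaminophen and 0.06 with trichloroethylene. On CPM scaled with TMM factors (edgeR's scaling, which sets the bulk of transcripts level), the members' median log2 change was 0.20 with TCDD, -0.22 with acetaminophen and 0.05 with trichloroethylene. The direction for TCDD was thus opposite on the 2 scales. Single members also passed 0.5 on this scale. They ran from -0.94 to 0.42 with acetaminophen, -0.36 to 0.89 with TCDD and -0.57 to 0.54 with trichloroethylene. With gentamicin the members' median was -1.36, beside -0.05 over all tested transcripts. When the rule was applied to TMM-scaled CPM, 153 transcripts met it, of which 78 were members.

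**Figure D2:**
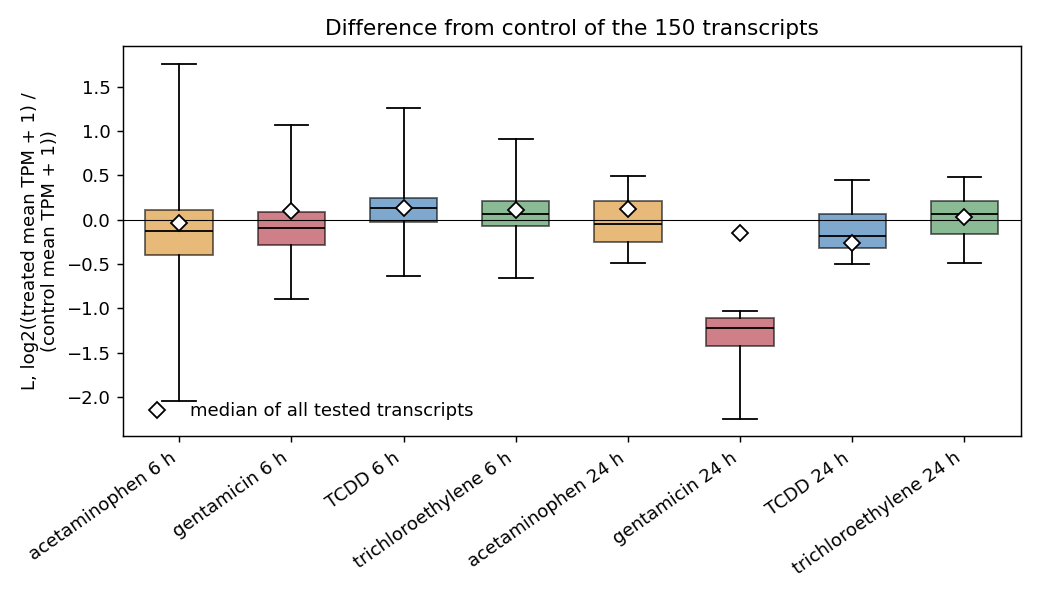
Boxes show the L of the 150 members for each compound against the control of its time (box, interquartile range; line, median; whiskers, lowest and highest), and diamonds the median of all tested transcripts. The 24 h boxes are fixed by the rule; at 6 h the gentamicin box has its median at -0.09 and the acetaminophen whiskers run from -2.05 to 1.76.

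The members were transcripts of low to middle abundance. Their mean over the 5 controls ran from 1.02 to 142 TPM with a median of 12.2, beside 16.8 for the 13730 transcripts in the control range. It was 25.2 for the 2113 transcripts that were flat with the other 3 compounds but had a gentamicin L above -1. Under 5 TPM lay 33 members, and 20 exceeded 50 TPM. Their length had a median of 1812 bases and ran from 87 to 6008, beside a median of 1956 in the control range. Shorter than 500 bases were 6 members, or 4.0%, against 5.5% of the range and 2.0% of the 2113 flat transcripts. Non-whole estimated counts, which arise when reads are divided between similar transcripts, occurred in 49 members (32.7%), beside 38.7% of the range. For these a shift between transcripts of 1 gene or of similar genes cannot be told apart from a fall of the gene. A pair among them had the same counts and the same TPM in every library. Its members are not independent, yet each is counted in the results.

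The extremes show the depth of the effect and its limits. The member with the lowest L, of 465 bases and with whole counts throughout, stood at 48.8, 65.1 and 54.9 TPM in the 24 h controls and at 9.62, 8.03 and 15.7 TPM with gentamicin. All its gentamicin values lay far below the control values, and its mean was 5.06-fold lower. Plain TPM ratios reached 26.5, larger than for this member. That largest ratio came from a member with 9, 4 and 10 counts in 24 h controls and 0, 0 and 1 with gentamicin. The most abundant members were a transcript of 952 bases, with 145, 151 and 147 TPM in 24 h controls and 66.6, 67.1 and 66.0 with gentamicin, and one of 616 bases. The first of these had narrow groups that lay well apart. At the other end, 2 members had no count in any gentamicin library of 24 h. Their controls held only 4 to 6 and 0 to 6 counts, so no fold is given for them. A further 2 members, of 146 and 249 bases, had too few counts to be tested.

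The 6 h libraries of the compounds were not used by the rule, and 6 h controls entered it only through the control range. They show the members' state earlier in the exposure. At 6 h with gentamicin, 18 of the 148 tested members were called lower, 3 were called higher and 127 passed in neither direction. The median log2 change over the 148 tested members was -0.22 (middle of the distribution -0.45 to -0.02), beside 0.01 over all 15990 tested transcripts and -0.01 over the flat transcripts that gentamicin did not lower. The change was negative in 112 members (75.7%), and in 48.3% of all tested transcripts. In TPM the members' median L was -0.09 while that of all tested transcripts was 0.10, a similar distance on a shifted scale.

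Calls at 6 h were made with edgeR's quasi-likelihood test at a Benjamini-Hochberg adjusted p under 0.05 over all tested transcripts. With gentamicin, the 18 falls were 12.2% of the tested members, where 4.88% of all tested transcripts were called lower. Rises numbered 3 (2.0%), against a background of 8.34%. Among the 2095 tested transcripts that were flat with the other compounds and not lowered by gentamicin, 3.5% were called lower and 8.3% higher. None of the 18 falls exceeded 2-fold and their median log2 change was -0.48; over the tested members the median SE was 0.17. In TPM, 50 members had all 3 gentamicin libraries below both controls (33.8%), against 13.4% of all tested transcripts, and 26 had all 3 above both controls (17.6%, against 34.9%).

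The count of 18 depends on single libraries and on the model, and the calls among all transcripts moved with it. Without control replicate 2, 5 members were called lower (3.36% of those tested, against 1.71% of all tested transcripts), and without control replicate 3 the count was 8 (5.37%, against 1.89%). In these fits the spread of the single control left is borrowed from the remaining groups. Without gentamicin replicate 2 the count was 9 (6.08%, against 3.42%) and without gentamicin replicate 3 it was 8 (5.41%, against 3.44%). It was 36 with fragment length as a covariate (24.3%, against 8.19%) and 29 with DESeq2 (20.3%, against 7.73%). It was 8 with limma on log2(TPM + 1) (5.41%, against 2.27%) and 11 without a low-count filter (7.33%, against 2.66%). The count of 3 rises was 1 without control replicate 2 (0.67%, against 3.64%) and 1 without control replicate 3 (0.67%, against 4.06%).

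**Figure D3:**
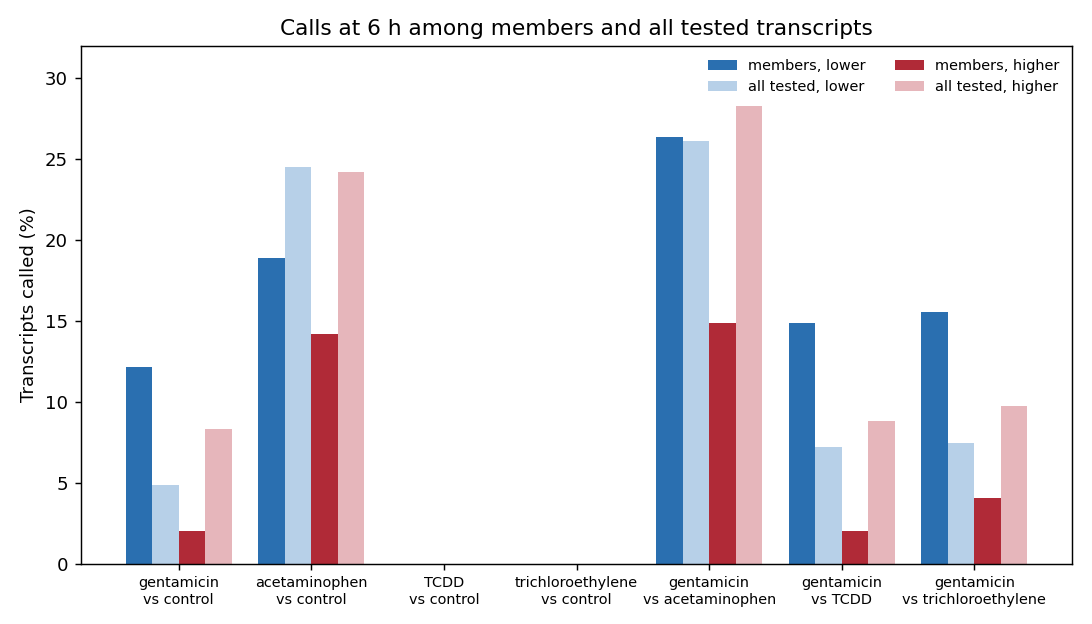
Bars give the percent of the 148 tested members (dark) and of all 15990 tested transcripts (pale) called lower or higher at 6 h in each comparison (edgeR adjusted p under 0.05). For gentamicin against control the members stand at 12.2% lower and 2.0% higher beside 4.88% and 8.34% of all; no transcript was called for TCDD or trichloroethylene.

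ENSRNOT00000007362, a transcript of 3166 bases with whole counts in every library, had the smallest p among the members that fell with gentamicin at 6 h. It stood at 35.2 and 31.9 TPM in the 6 h controls and at 19.7, 21.7 and 22.6 TPM with gentamicin. The groups did not overlap, and the log2 change was -0.78 ± 0.08 (SE; edgeR adjusted p = 9.4e-08). At 24 h it was at 29.5, 30.6 and 30.0 TPM in controls and 11.4, 11.2 and 10.4 TPM with gentamicin. In TPM the other compounds were within the rule's limit but below every 24 h control too. They stood at 22.7 to 24.0 TPM with acetaminophen, 20.3 to 25.2 with TCDD and 22.9 to 24.7 with trichloroethylene. For TCDD this rests on the TPM scale: the estimated counts were 703, 625 and 619, overlapping 582, 662 and 702 in controls. With acetaminophen at 6 h the transcript fell less, to 25.8, 26.4 and 26.7 TPM (log2 change -0.30 ± 0.08, adjusted p = 0.0021). That call was lost without control replicate 2 (-0.22, adjusted p = 0.079). With TCDD and trichloroethylene at 6 h the log2 changes were -0.02 ± 0.08 and 0.00 ± 0.08. It was lower with gentamicin than with each of the other compounds at 6 h, by -0.48 ± 0.07 against acetaminophen, -0.76 ± 0.07 against TCDD and -0.78 ± 0.07 against trichloroethylene (edgeR adjusted p = 2.7e-06, 2.2e-08 and 1.5e-08).

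ENSRNOT00000029677, of 1860 bases, was next by p. It had 15.5 and 16.5 TPM in the 6 h controls and 11.3, 9.67 and 13.8 TPM with gentamicin. The log2 change was -0.59 ± 0.12 (SE) and edgeR's adjusted p = 0.00095. All 3 gentamicin libraries lay below both controls. Acetaminophen lowered it as well at 6 h, to 9.66, 9.01 and 9.39 TPM (log2 change -0.71 ± 0.12, adjusted p = 1.2e-05). The difference between the 2 compounds was 0.13 ± 0.11 (adjusted p = 0.34). By 24 h the acetaminophen libraries had 14.9, 13.4 and 15.6 TPM, overlapping the controls with 14.6, 18.0 and 17.3, while gentamicin stood at 4.74, 4.79 and 4.64. The overlap with acetaminophen rests on the TPM scale. TMM factors were 1.18, 1.15 and 1.18 in these acetaminophen libraries and 1.02, 1.01 and 1.01 in the controls, and a larger factor lowers the scaled counts. Counts of this transcript were not whole in nearly every library, so reads were divided with a similar transcript.

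The other falls at 6 h included an abundant member of 616 bases. Its controls had 146 and 142 TPM and its gentamicin libraries 91.7, 79.1 and 97.1 (log2 change -0.79 ± 0.19, edgeR adjusted p = 0.0054), with no overlap. Most members, however, were not called. The member of 465 bases with the lowest L at 24 h was at 59.1 and 66.6 TPM in 6 h controls and at 44.7, 51.0 and 47.6 with gentamicin. Its libraries did not overlap, yet its change of -0.48 ± 0.24 did not pass (adjusted p = 0.23).

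**Figure D4:**
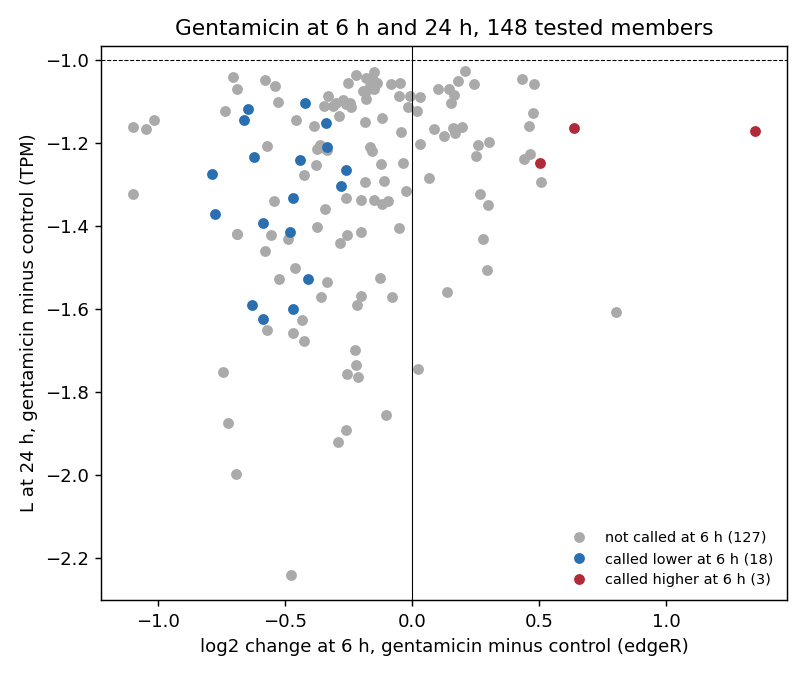
Each point is 1 of the 148 tested members, with its log2 change at 6 h from edgeR on the horizontal axis and its L at 24 h in TPM on the vertical axis; the dashed line is the limit of -1 set by the rule. Most points lie left of 0 at 6 h, and the 18 called lower and 3 called higher are coloured.

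With gentamicin at 6 h, 15 of the 18 falls were among the 74 tested members with the higher control level, where the median SE was 0.14. The other 3 were among the 74 with the lower level, where it was 0.25. Gentamicin rises numbered 1 at the higher and 2 at the lower level. With acetaminophen, falls numbered 17 and 11 and rises 9 and 12. Shares over all transcripts of like level or count type were not computed. The median change with gentamicin was -0.24 at the higher and -0.21 at the lower level. Among the 99 members with whole counts in every library the median was -0.20, with 13 falls. Among the 49 with divided reads it was -0.26, with 5 falls.

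The rule kept only transcripts near control with acetaminophen at 24 h. At 6 h with acetaminophen, 28 of 148 members fell (18.9%, against 24.5% of all tested transcripts by edgeR) and 21 rose (14.2%, against 24.2%). The shares were thus not above the background in either direction. The number of rises was 12 without control replicate 2 (8.05%, against 18.9% of all) and 10 without control replicate 3 (6.71%, against 18.8%). Falls had a median log2 change of -0.56 and rises one of 0.81. Changes over 2-fold numbered 5 falls and 7 rises. No share over all tested transcripts was computed for a 2-fold cut, so nothing is read from these counts. The median over all tested members was -0.09. In TPM, 63 members lay below both controls without overlap (42.6%, background 38.9%) and 33 above (22.3%, background 32.5%).

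A member of 1357 bases had the deepest called fall with acetaminophen at 6 h. It was at 5.18 and 5.28 TPM in controls and at 1.04, 1.03 and 1.54 TPM with acetaminophen. The log2 change was -2.06 ± 0.24 (SE) and edgeR's adjusted p = 9.5e-08. At 24 h the acetaminophen libraries were at 3.07, 3.67 and 4.15 TPM, still below the controls with 4.78, 4.57 and 5.82. Another, of 1806 bases and with divided reads in most libraries, was at 53.1 and 52.4 TPM in 6 h controls and at 24.4, 22.7 and 23.1 with acetaminophen (log2 change -1.12 ± 0.10, edgeR adjusted p = 1.1e-09). At 24 h it stood at 50.2, 40.8 and 48.8 TPM with acetaminophen, at 54.1, 56.9 and 58.3 in controls and at 15.5, 15.9 and 11.1 with gentamicin. Both were therefore lower with acetaminophen as well, at 6 h by test and at 24 h in 3 of 3 libraries.

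ENSRNOT00000021674, of 2582 bases, had the smallest p among members that rose at 6 h. It stood at 1.499 and 1.64 TPM in the 6 h controls and at 7.12, 8.14 and 7.83 TPM with acetaminophen. The log2 change was 2.34 ± 0.25 (SE) and edgeR's adjusted p = 1.6e-08. Gentamicin also raised it at 6 h, to 4.34, 4.40 and 4.37 TPM (log2 change 1.35 ± 0.25, adjusted p = 0.0004). Both compounds were above both controls in every library. At 24 h the controls themselves had 5.15, 3.13 and 4.93 TPM, acetaminophen 7.64, 6.73 and 5.43, and gentamicin 1.71, 1.20 and 1.29. With gentamicin it was thus above control at 6 h and below it at 24 h in 3 of 3 libraries each. The level is low: the library with fewest counts at 6 h held 19, with trichloroethylene.

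ENSRNOT00000004570, of 1875 bases, moved in opposite directions with the 2 compounds at 6 h. Controls had 20.6 and 17.64 TPM, acetaminophen 33.9, 37.5 and 40.1 TPM (log2 change 1.01 ± 0.11, SE; edgeR adjusted p = 2.1e-08) and gentamicin 14.2, 14.7 and 17.65 TPM. The acetaminophen libraries were all above the controls, while 2 of 3 gentamicin libraries were below both controls (log2 change -0.42 ± 0.11, adjusted p = 0.01). The gentamicin call did not pass without control replicate 2 (-0.29, adjusted p = 0.25) or with limma on log2(TPM + 1) (-0.29, adjusted p = 0.078). Gentamicin against acetaminophen gave -1.43 ± 0.10 (adjusted p = 4.7e-12). At 24 h the acetaminophen libraries, with 23.8, 22.7 and 26.4 TPM, lay just above controls of 21.1, 21.97 and 20.6, and gentamicin stood at 9.23, 9.87 and 8.96. The small excess with acetaminophen rests on the TPM scale. TMM factors were 1.15 to 1.18 in these acetaminophen libraries and 1.01 to 1.02 in the controls, and a larger factor lowers the scaled counts.

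**Figure D5:**
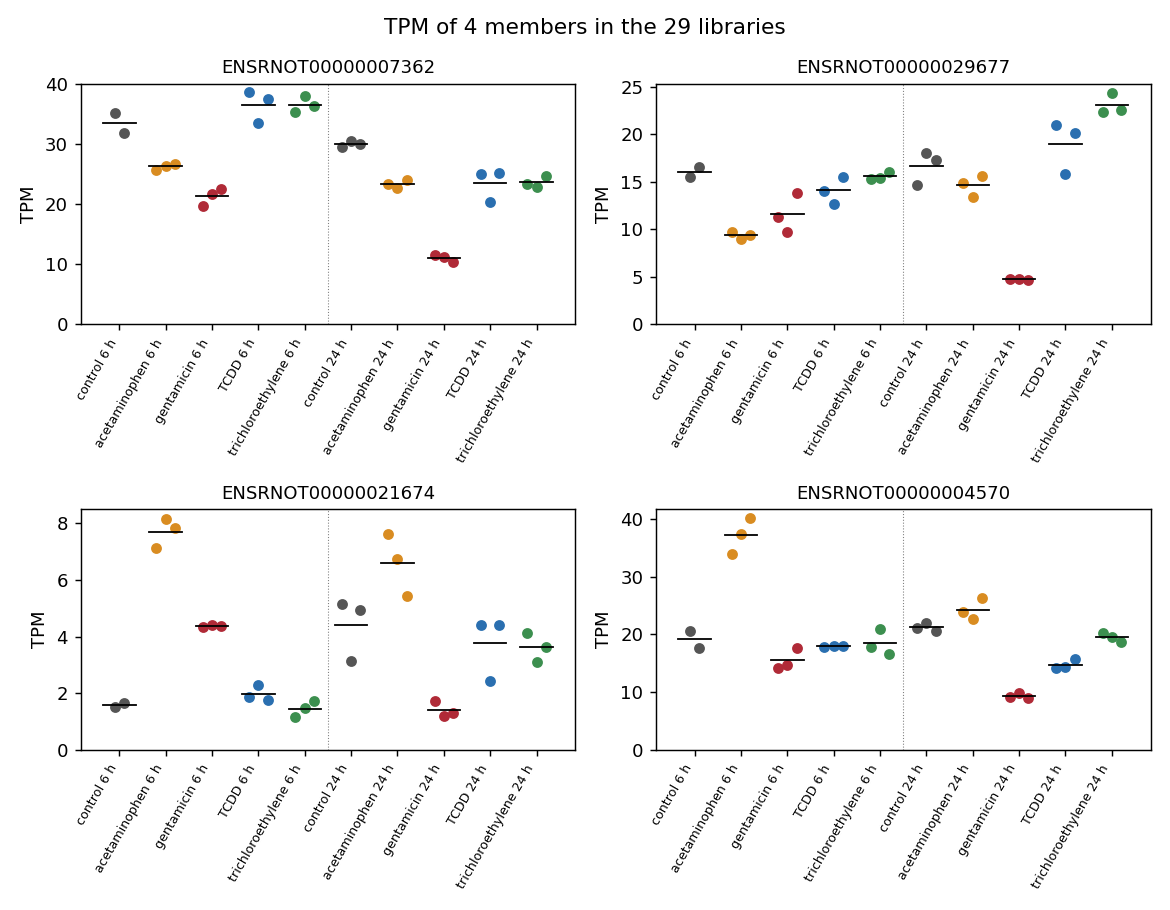
TPM of the 4 identified members in each of the 29 libraries (points) with the group mean (line), 6 h groups left and 24 h groups right of the dotted line. In all 4 panels the gentamicin libraries of 24 h are lowest within that time, and ENSRNOT00000021674 and ENSRNOT00000004570 peak with acetaminophen at 6 h.

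TCDD and trichloroethylene at 6 h gave no call among the members or among all tested transcripts (background 0% in both directions by edgeR). At an unadjusted p under 0.05 by edgeR lay 9 of the 148 tested members for TCDD and 20 for trichloroethylene. Of all 15990 tested transcripts, 1124 and 2070 did, so the members' shares were close to those of all. DESeq2 and limma on log2(TPM + 1) called 0 members for either compound; over all transcripts they called 6 and 0 for TCDD and 23 and 3 for trichloroethylene. With only the libraries of the 2 groups in the fit, 1 of 143 members was called lower with trichloroethylene (0.70%, against 2.17% of all) and 2 higher (1.40%, against 1.04%). The members' median log2 change was -0.00 with TCDD and -0.06 with trichloroethylene. In TPM the medians were 0.13 and 0.07, where those of all tested transcripts were 0.14 and 0.11, so the sign for trichloroethylene differed between scales. In TPM, 7 members lay below both controls in every TCDD library (4.73%, background 5.63%) and 43 above (29.1%, background 34.2%). With trichloroethylene, 19 lay below (12.8%, background 10.2%) and 47 above (31.8%, background 37.2%).

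Gentamicin was also set against each other compound at 6 h, which tests the differences themselves; the 3 comparisons share the gentamicin libraries. Against TCDD, 22 of 148 members were lower with gentamicin (14.9%, background 7.24%) and 3 higher (2.0%, background 8.84%). Against trichloroethylene, 23 were lower (15.5%, background 7.49%) and 6 higher (4.1%, background 9.72%). Against acetaminophen, 39 were lower (26.4%, background 26.1%) and 22 higher (14.9%, background 28.3%). The median differences were -0.19, -0.17 and -0.15. The count of 22 was 12 without gentamicin replicate 2 (8.11%, against 5.04% of all), 12 without gentamicin replicate 3 (8.11%, against 5.56%), 12 without TCDD replicate 1 (8.11%, against 5.13%) and 10 without TCDD replicate 2 (6.76%, against 4.94%). The count of 23 was 11 without gentamicin replicate 1 (7.43%, against 4.5005%) and 14 without gentamicin replicate 2 (9.46%, against 4.98%). It was 15 without trichloroethylene replicate 1 (10.1%, against 5.07%) and 10 without trichloroethylene replicate 2 (6.76%, against 4.61%). Only 4 members were called lower with gentamicin than control and than all 3 other compounds at 6 h, or 2.7%, beside 1.59% of all tested transcripts; 1 was higher in all 4, beside 2.87%. The 4 lower were ENSRNOT00000007362 and members of 1514, 3133 and 1531 bases.

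Across the 10 groups, then, the gentamicin libraries of 24 h had the lowest mean in 145 members; the other 5 were lowest in a 6 h group, 2 of them with acetaminophen. The highest mean was spread more widely, most often with trichloroethylene at 24 h (38 members) or acetaminophen at 24 h (29). In untreated cells the median member was at 10.7 TPM at 6 h and 12.9 TPM at 24 h, and with gentamicin at 11.4 TPM and 4.84 TPM. The rule used the 24 h libraries on 1 side of both differences, so they are descriptions. On TMM-scaled counts the median log2 difference between 24 h and 6 h was 0.04 in controls and -1.12 with gentamicin. In these bulk cultures fewer cells that hold a transcript and less of it per cell cannot be told apart.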

How the data were processed

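Per the submitters' processing notes, the authors ran kallisto 0.43. Per the file headers, the deposited tables hold for each transcript an estimated count, a TPM value, a length and an effective length (28420 transcripts). No source at hand states the transcript set, the strand setting or trimming. The TPM values deposited by the authors chose the members; the estimated counts, of which 20.0% of values were not whole, were rounded and tested.

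Transcripts passing filterByExpr (minimum count 10) numbered 15990, including 148 members. edgeR 4.0.16 in R 4.3.3 fitted 1 quasi-likelihood model with TMM factors, robust dispersion and a coefficient per group (19 residual degrees of freedom). Calls used a Benjamini-Hochberg adjusted p under 0.05 over all tested transcripts. Steps were tested on simulated counts. Alternatives were DESeq2 1.42.0 (which replaced its parametric trend by a local fit), limma 3.58.1 on log2(TPM + 1) for transcripts averaging at least 1 TPM, and other scaling, filters, covariates, samples and rule limits.

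Without gene names, the rule for named members gave at most 2 called lower with gentamicin at 6 h and at most 2 called higher with any compound at 6 h, by smallest p. The members, lists and tests were chosen with earlier results of these data known; the planned gene lists and cell type markers were not used. No batch or run date is in the labels.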

Additional observations from a re-analysis of the deposited data

Results flagged for a closer look

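ENSRNOT00000021674 was above control in every gentamicin library at 6 h (L = 1.06) and below control in every gentamicin library at 24 h (L = -1.17). ENSRNOT00000007362 was above control in every trichloroethylene library at 6 h (L = 0.12) and below it in every one at 24 h (L = -0.33). On TMM-scaled counts its 6 h difference was 0.00, so that part rests on the TPM scale. Of the 4 identified members, these had all libraries above control at 6 h and all below at 24 h. The pattern was not particular to them: 26 of the 150 members showed it with gentamicin, where the rule fixed the 24 h direction. It was shown by 9 with TCDD, 6 with trichloroethylene and 2 with acetaminophen. The reverse was shown by 10 with acetaminophen and 2 with trichloroethylene. No share over all transcripts was computed for these counts, so nothing is read from them. The differences between the times were not tested, since the rule used the 24 h libraries.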

How the results depend on the processing

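With all libraries kept, members called lower with gentamicin at 6 h numbered 18, and 11 without a low-count filter, 36 with the fragment length covariate, 8 with limma on log2(TPM + 1) and 29 with DESeq2. Those called higher numbered 3 (2.0%, against 8.34% of all tested transcripts). They numbered 6 with the fragment length covariate (4.05%, against 11.5%) and 6 with only the compared groups (4.20%, against 10.1%). Trichloroethylene at 6 h gave 3 in place of 0 with only the compared groups. Lower calls against acetaminophen were 25 with limma (16.9%, against 20.1% of all), beside 39 (26.4%, against 26.1%). Against TCDD they were 11 with only the compared groups (7.75%, against 6.23%), beside 22 (14.9%, against 7.24%). The rule gave 52 transcripts with the other compounds held within 0.3 and 339 within 0.7, beside 164. The causes were not tested. Leaving out 1 library at a time gave 5 to 13 falls and 1 to 3 rises with gentamicin, 10 to 19 rises with acetaminophen, 10 to 20 lower calls against TCDD and 10 to 20 against trichloroethylene, and 144 to 193 transcripts by the rule, 116 to 147 of them members. Shares of all tested transcripts at the low end of each range of calls stand with the results above. Same-numbered libraries of the compared groups did not pair: their deviations correlated over 0.1 in 1 of 17 pairs. With the replicate number as a block the gentamicin counts were 18 and 3. For the 4 identified members, the 6 h changes with gentamicin and acetaminophen against control kept their direction under the alternatives run; their differences between compounds were not recomputed. The median SE was 0.25 for the members of lower control level and 0.14 for those of higher level, so small changes of the former may have gone undetected.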
